A study of Danio rerio with 16 samples.

Results

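Oxidative phosphorylation subunits are the proteins that make up complexes I to V of the inner mitochondrial membrane. Transcripts of their genes were followed here in skeletal muscle of adult zebrafish, with and without an injury. The fish were mutants of the muscle ankyrin repeat gene ankrd1a and wild type. Members were taken by gene symbol alone, as genes whose symbol starts like that of a subunit (nduf, sdh, uqcr, cyc1, cox4 to cox8, atp5 and the mt-nd, mt-co, mt-cyb and mt-atp genes), with assembly factors left out. Of 32520 genes in the deposited table, 108 were members. Complex I had 43 of them, complex II 5, complex III 10, complex IV 28 and complex V 22. The mitochondrial genome carried 13 and the nucleus 95. The genes of the NDUFA4 family were counted with complex IV, where the human protein sits.

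The 16 libraries fell into 4 groups of 4, and each library held RNA of 1 fish. The groups were injured ankrd1a mutants, injured wild type, non-injured ankrd1a mutants and non-injured wild type. Mutants carried the allele bns502, made by CRISPR/Cas9, and wild type was strain AB (Oregon). The labels do not tell how the allele alters the transcript, nor the sex or exact age of the fish, and mutants came from this single allele. Injured fish had a needle pushed into and pulled out of the dorsal myotome of the tail and recovered for 5 days. The block of tail around the wound was then cut out whole, so that each library mixes all cell types of that block, and non-injured fish gave the matching block. Libraries were made from poly A RNA.

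Complexes I and II pass electrons from NADH and succinate to ubiquinone, complex III passes them on to cytochrome c, and complex IV passes them to oxygen. Complexes I, III and IV pump protons as they do so, and complex V, the ATP synthase, uses the returning protons to make ATP. Complex II is encoded by nuclear genes alone, whereas the other complexes each combine nuclear subunits with a few made inside the mitochondrion. Muscle is rich in these proteins, slow oxidative fibres more so than fast ones. Several nuclear subunits of complex IV exist as pairs of paralogs, and in mammals one of the pair is often found mainly in heart and skeletal muscle.

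Libraries held between 17324501 and 25231137 estimated counts, and averaged 17717606 in injured mutants, 23461840 in injured wild type, 18522753 in non-injured mutants and 22642589 in non-injured wild type. On average the mutants were thus the shallower libraries in both states. Without injury the ranges overlapped, at 17523729 to 19811579 in mutants and 18011159 to 25231137 in wild type. Levels are given as CPM, counts divided by the scaled library size, and every adjusted p comes from edgeR's quasi-likelihood test with Benjamini-Hochberg adjustment over the 16514 genes tested, two-sided, with a gene called below 0.05. The symbol ANKRD1 belongs to 2 IDs that could not be told apart as ankrd1a and ankrd1b, so that they do not check the genotype labels. ENSDARG00000075263 had 90.0 to 148 CPM in injured mutants, 148 to 186 CPM in injured wild type, 1.09 to 1.44 CPM in non-injured mutants and 1.77 to 5.08 CPM in non-injured wild type. ENSDARG00000076192 stayed below 2 CPM in every library. Single libraries were highest of their 4 for most of the 105 tested members in several groups: the first of injured mutants for 87, the fourth of injured wild type for 98 and the fourth of non-injured wild type for 93. In the fourth library of injured wild type the mitochondrial genome members summed to 102000 CPM, with 54970 to 55690 CPM in the other 3. Leaving it out changed the wild type injury call of 7 members, and their values without it are given where they are described.

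After injury the transcripts of most subunit genes were at lower levels in both genotypes. In mutants 88 of the 105 tested members were lower after injury and 4 were higher, with a median log2 fold change of -0.95, or 51.7% of the non-injured level. Over all genes tested, 13.3% were called lower and 14% higher in mutants, and the median was -0.02. In wild type 90 of 105 were lower and 5 higher, with a median of -0.99, or 50.2% of the non-injured level. The shares over all genes there were 11.9% lower and 11.8% higher, and the median was -0.03. Leaving out the fourth injured wild type library gave 95 lower and 3 higher, the most lower of any single library left out. Leaving out the fourth non-injured wild type library, also high for most members, gave 73 lower and 6 higher. Over all wild type libraries left out singly, 72 to 95 members were lower and 3 to 6 higher.

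The libraries themselves showed the same split. In mutants the 4 injured fish lay below all 4 non-injured fish for 91 members and above them for 5, against 14.8% and 16.3% of all genes. In wild type the injured fish lay below for 61 members and above for 4, against 10.3% and 11.8% of all genes. Summed over the 95 nuclear members, the level was 15070 to 19090 CPM in injured mutants and 29330 to 33350 CPM in non-injured mutants. It was 10670, 11830, 14210 and 21240 CPM in injured wild type, where the highest value is that of the fourth library, and 23280 to 35810 CPM in non-injured wild type. On this scale the groups did not overlap in either genotype. As a share of all counts the nuclear members overlapped in wild type, at 1.26% to 2.12% with injury and 1.79% to 3.41% without.

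**Figure D1:**
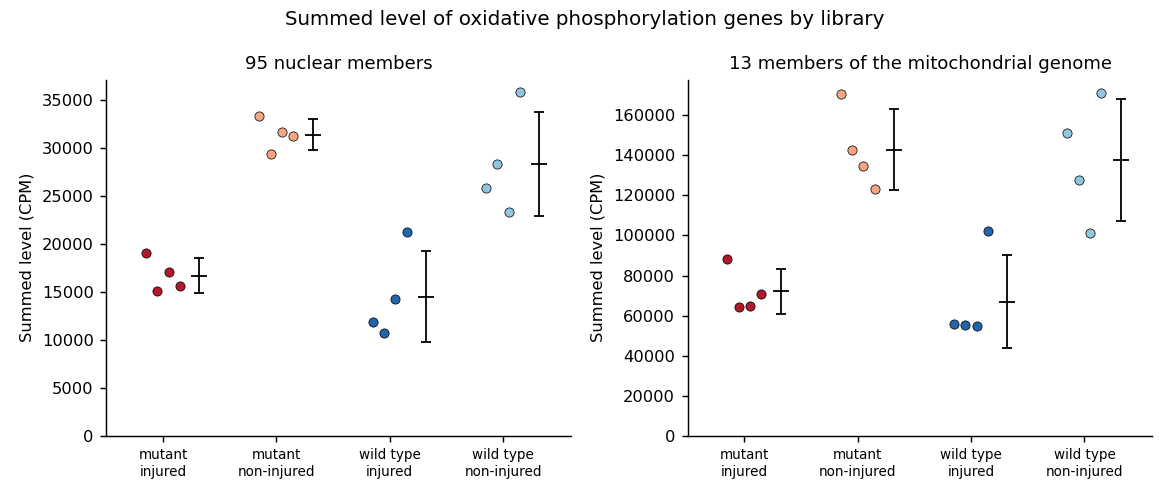
Summed level of the 95 nuclear members (left) and the 13 members carried by the mitochondrial genome (right) in CPM; each point is 1 fish, and the bars give the mean and SD of 4 fish. On this scale, injured groups sit below the non-injured groups of the same genotype without overlap for the nuclear members. In both panels 1 injured wild type library lies well above the other 3. For the mitochondrial genome members the wild type groups overlap through that library.

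The same members fell in both genotypes. Of the members lower in mutants 97.7% were also lower in wild type, and of those lower in wild type 95.6% were also lower in mutants, 86 members in all. With 88 of 105 lower in mutants and 90 of 105 in wild type, a large overlap follows from these counts alone. The overlap over all genes was not counted. Another 4 were higher in both, and none was called in opposite directions. Across the 105 members the log2 fold changes of the genotypes had a Pearson correlation of 0.81 and a Spearman correlation of 0.57. This is a description across genes of shared libraries, and the comparisons have no library in common. The lower members called in a single genotype, named after their values were seen, were NDUFA4L2 and ATP5PD in mutants and SDHD (ENSDARG00000030139), UQCR10, UQCRH and atp5if1a in wild type.

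**Figure D2:**
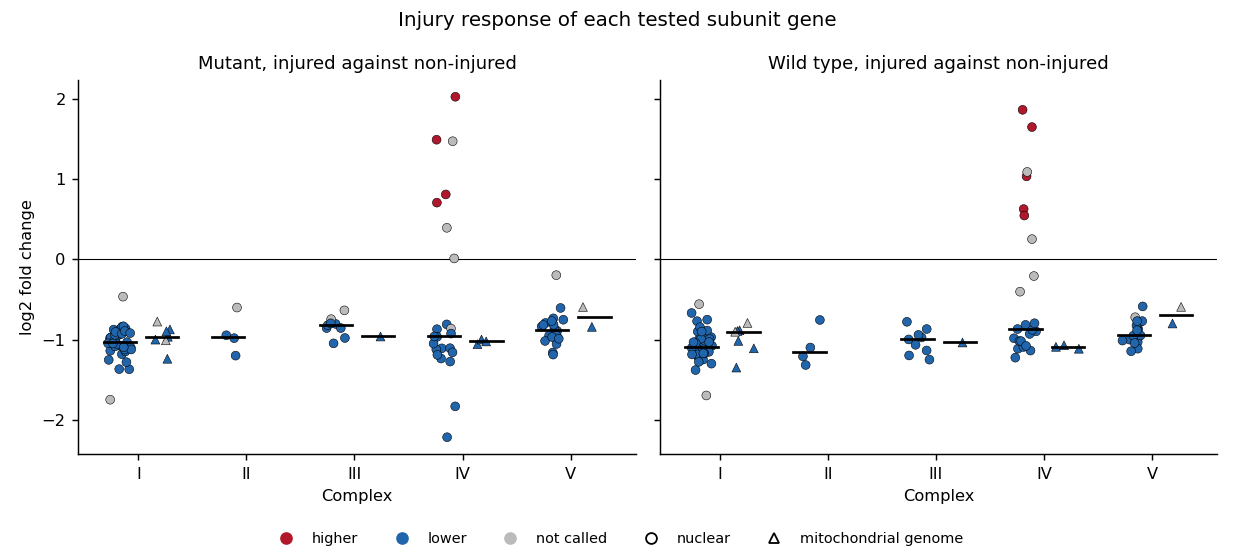
Log2 fold change, injured against non-injured, of each of the 105 tested members by complex, in mutants (left) and wild type (right); circles are nuclear genes, triangles mitochondrial genome genes, colours mark the edgeR call, and bars mark medians. Points above 0 appear in complex IV alone, all of them nuclear.

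Complex I, which takes electrons from NADH, had 39 of 43 members lower in mutants and 39 of 43 in wild type, with medians of -1.002 and -1.06. All 7 nuclear genes of its catalytic core fell in both genotypes, with medians of -1.12 in mutants and -1.17 in wild type. NDUFS3, a core subunit of the arm that holds the iron-sulphur clusters, had 111.9, 83.1, 98.8 and 93.0 CPM in injured mutants and 199.3, 192.6, 214.5 and 192.4 CPM in non-injured mutants. It had 70.2, 62.2, 81.9 and 125.6 CPM in injured wild type and 194.4, 217.6, 161.1 and 311.2 CPM in non-injured wild type. Every injured fish was below every non-injured fish of its genotype. On the log2 scale the change was -1.05 (SE 0.22, adjusted p = 0.0028) in mutants and -1.38 (SE 0.22, adjusted p = 0.00058) in wild type.

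Accessory subunits of complex I surround that core, and 27 of 29 fell in each genotype. NDUFB4, of the membrane arm, had 114.6, 81.8, 95.8 and 97.6 CPM in injured mutants and 181.2, 181.0, 180.7 and 205.4 CPM in non-injured mutants. In injured wild type it had 60.6, 61.9, 88.3 and 107.4 CPM, and in non-injured wild type 174.3, 206.7, 177.2 and 225.3 CPM. The groups were apart in both genotypes, with log2 fold changes of -0.94 (SE 0.18, adjusted p = 0.0014) in mutants and -1.30 (SE 0.18, adjusted p = 0.00018) in wild type. NDUFB7 and NDUFA3, accessory subunits too, changed by -1.10 and -1.14 in mutants and by -1.08 and -1.22 in wild type. The accessory genes not called in either genotype were ndufv3, at -0.46 in mutants and -0.56 in wild type (called without the fourth injured wild type library, at -0.81 with adjusted p = 0.0036), and ndufa9b, at -1.75 and -1.70 with adjusted p of 0.19 and 0.20.

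Complex II, succinate dehydrogenase, also belongs to the citric acid cycle, and 4 of its 5 members could be tested. SDHA, the flavoprotein that oxidises succinate, had 286.6, 220.5, 248.5 and 223.8 CPM in injured mutants and 724.4, 476.6, 529.2 and 519.9 CPM in non-injured mutants. It had 163.8, 136.7, 171.4 and 295.7 CPM in injured wild type and 406.4, 453.0, 356.4 and 696.7 CPM in non-injured wild type. No injured fish reached a non-injured fish of its genotype. Its log2 fold change was -1.20 (SE 0.25, adjusted p = 0.0027) in mutants and -1.32 (SE 0.25, adjusted p = 0.0018) in wild type. SDHB, the iron-sulphur subunit, changed by -0.95 in mutants (adjusted p = 0.0066) and by -1.21 in wild type (adjusted p = 0.0018). SDHC, a membrane anchor, changed by -0.98 (adjusted p = 0.003) and by -1.10 (adjusted p = 0.0018). The other anchor, SDHD (ENSDARG00000030139), was at -0.60 in mutants (adjusted p = 0.075) and fell by 0.76 on the log2 scale in wild type (adjusted p = 0.032).

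In complex III, 8 of 10 members fell in mutants and 10 of 10 in wild type, with medians of -0.84 and -1.01. UQCRC2, one of its large core proteins, had 294.3, 193.5, 264.7 and 241.6 CPM in injured mutants and 430.0, 428.7, 438.9 and 459.1 CPM in non-injured mutants. In injured wild type it had 140.2, 124.4, 137.1 and 225.9 CPM, and in non-injured wild type 385.2, 389.6, 268.8 and 448.8 CPM. The groups did not overlap, and the log2 fold change was -0.82 (SE 0.20, adjusted p = 0.0072) in mutants and -1.25 (SE 0.20, adjusted p = 0.00061) in wild type. The Rieske iron-sulphur protein gene UQCRFS1 fell by 0.86 on the log2 scale in mutants and by 1.198 in wild type. UQCR10 and UQCRH, both small subunits, did not pass the test in mutants (-0.64 with adjusted p = 0.19 and -0.74 with adjusted p = 0.083).

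Complex V had 20 of 22 members lower in each genotype, with medians of -0.86 in mutants and -0.92 in wild type. ATP5F1B encodes the catalytic beta subunit, in which ATP is formed. It had 2640, 2148, 2468 and 2113 CPM in injured mutants and 4123, 3531, 3963 and 4166 CPM in non-injured mutants. It had 1546, 1426, 1820 and 2676 CPM in injured wild type and 2826, 3702, 2822 and 4274 CPM in non-injured wild type. All injured fish were lower, and the log2 fold change was -0.75 (SE 0.20, adjusted p = 0.012) in mutants and -0.87 (SE 0.20, adjusted p = 0.0062) in wild type. All 5 tested genes of the F1 part, which holds the catalytic sites and the central stalk, fell in both genotypes. Of 13 genes for the outer stalk and the membrane part, 13 fell in mutants and 12 in wild type. The exception was ATP5PD, of the outer stalk, at -1.06 in mutants (adjusted p = 0.017) and -0.72 in wild type (adjusted p = 0.091). Without the fourth injured wild type library it was called there too, at -1.10 (adjusted p = 0.0077).

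The 13 genes of the mitochondrial genome moved with the nuclear ones. In each genotype 10 of 13 fell, with medians of -0.96 in mutants and -1.02 in wild type, beside -0.95 and -0.99 for the nuclear members. MT-CO1, the subunit of complex IV that reduces oxygen, had 28440, 22580, 20630 and 20890 CPM in injured mutants and 56890, 44560, 45490 and 45570 CPM in non-injured mutants. It had 19950, 19670, 19460 and 35950 CPM in injured wild type and 56680, 45860, 38490 and 64680 CPM in non-injured wild type. For MT-CO1 even the fourth injured wild type library was below every non-injured one. Of the 13 genes, 10 lay below without overlap in mutants and 6 in wild type, beside 14.8% and 10.3% of all genes. Their summed level reached 102000 CPM in injured wild type and began at 101000 CPM in non-injured wild type, so these groups overlapped. On the log2 scale MT-CO1 changed by -1.06 (SE 0.23, adjusted p = 0.0035) in mutants and -1.11 (SE 0.23, adjusted p = 0.0030) in wild type.

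MT-ND3, of complex I, fell most among these genes, with log2 fold changes of -1.24 (SE 0.29, adjusted p = 0.0059) in mutants and -1.35 (SE 0.29, adjusted p = 0.0042) in wild type. MT-CYB, the cytochrome b of complex III, changed by -0.95 in mutants (adjusted p = 0.0077) and -1.03 in wild type (adjusted p = 0.0057). MT-ATP6, part of the proton channel of complex V, changed by -0.84 (adjusted p = 0.03) and -0.80 (adjusted p = 0.041), calls that were lost under 7 alternatives in mutants and 9 in wild type, with adjusted p of up to 0.17 and 0.23. Scaling by library size alone also took the mutants' calls of MT-CYB (adjusted p = 0.054), MT-ND2 (0.098), MT-ND4 (0.051) and mt-nd4l (0.08). In wild type it took that of mt-nd4l (0.056). The calls of MT-ND5 were lost under 5 alternatives in mutants and 7 in wild type, with adjusted p of up to 0.15 and 0.16. In wild type MT-ND2 was also lost under 7, with values of up to 0.16. MT-ND3, MT-CO1, MT-CO2 and MT-CO3 stayed called in both genotypes under every alternative, as did MT-ND4 and MT-CYB in wild type. The genes not called in either genotype were MT-ND1, MT-ND6 and mt-atp8, with values between -0.59 and -1.01. Without the fourth injured wild type library all 13 genes were called lower in wild type, with MT-ND1 at -1.14 (adjusted p = 0.0083), MT-ND6 at -1.30 (adjusted p = 0.017) and mt-atp8 at -0.91 (adjusted p = 0.011). MT-ND1 and MT-ND6 were also called in wild type without the second non-injured library, MT-ND1 without the third, and both in mutants without the fourth non-injured library. DESeq2 called MT-ND1 in both genotypes and MT-ND6 in mutants. Fitting the mutant libraries alone called MT-ND1, MT-ND6 and mt-atp8 in mutants, and a block for replicate number called MT-ND1 and MT-ND6 there. Under the other alternatives these genes stayed uncalled. Since the libraries were made from poly A RNA, these values follow the polyadenylated part of the mitochondrial transcripts.

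Taken by library, the mitochondrial genome members made up 7.55% to 10.6% of all estimated counts in injured mutants and 10.3% to 16.01% in non-injured mutants. In wild type they made up 4.87% to 10.2% after injury and 7.75% to 16.3% without it. Nuclear members held 1.72% to 2.30% in injured mutants and 2.62% to 3.31% in non-injured mutants, and 1.26% to 2.12% in injured wild type and 1.79% to 3.41% in non-injured wild type. The count of mitochondrial genome members over that of nuclear members was 3.79 to 4.63 in injured mutants, 3.87 to 5.19 in injured wild type, 3.95 to 5.12 in non-injured mutants and 4.34 to 5.85 in non-injured wild type. These 4 ranges overlap, so no shift of one genome's transcripts against the other's stood out from the spread between fish. In whole tissue, fewer cells of a type and less RNA per cell cannot be told apart.

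Complex IV genes fell as well, with medians of -0.98 in mutants and -0.89 in wild type, but this complex alone held members that rose. Of its 26 tested members 18 fell and 4 rose in mutants, and 17 fell and 5 rose in wild type. All members with a log2 fold change above 0, 7 in each genotype, were nuclear genes of this complex. They were cox6a1 (ENSDARG00000022438), COX5B (ENSDARG00000015978), COX7A2 (ENSDARG00000053217), cox8a, ndufa4b and COX4I2 in both, with COX7A2 (ENSDARG00000110700) in mutants and cox6b1 in wild type. Each of the first 6 has a paralog among the members that fell in both genotypes. Further copies did not all fall: COX7A2 (ENSDARG00000110700) was at 0.013 in mutants (adjusted p = 0.98) and -0.21 in wild type (adjusted p = 0.65), and NDUFA4L2 was not called in wild type.

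The cox6a1 gene (ENSDARG00000022438) encodes a small subunit beside the catalytic core and rose most. It had 57.9, 66.9, 42.2 and 61.6 CPM in injured mutants and 11.6, 15.6, 15.9 and 12.8 CPM in non-injured mutants. In injured wild type it had 58.5, 43.1, 45.9 and 37.8 CPM, and in non-injured wild type 14.8, 10.2, 12.96 and 12.8 CPM. Every injured fish was far above every non-injured one. On the log2 scale cox6a1 changed by 2.03 (SE 0.18, adjusted p = 2.5e-06) in mutants and 1.87 (SE 0.18, adjusted p = 6.2e-06) in wild type.

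Its paralog COX6A1 (ENSDARG00000054588) did the opposite. It had 374.0, 284.4, 284.5 and 296.4 CPM in injured mutants and 767.3, 662.7, 836.6 and 730.7 CPM in non-injured mutants. It had 215.1, 216.9, 344.1 and 423.5 CPM in injured wild type and 669.8, 754.2, 394.0 and 986.7 CPM in non-injured wild type, where the third library was below the highest injured one. As a log2 fold change this was -1.27 (SE 0.26, adjusted p = 0.0024) in mutants and -1.23 (SE 0.26, adjusted p = 0.0037) in wild type.

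COX5B is a zinc-binding subunit facing the mitochondrial matrix. The copy ENSDARG00000015978 had 31.1, 31.9, 24.5 and 32.2 CPM in injured mutants and 10.4, 10.4, 12.4 and 9.27 CPM in non-injured mutants. It had 26.8, 25.5, 25.1 and 16.9 CPM in injured wild type and 13.3, 7.74, 10.5 and 14.3 CPM in non-injured wild type. Injured fish were higher throughout, and the log2 fold change was 1.49 (SE 0.19, adjusted p = 6.2e-05) in mutants and 1.04 (SE 0.19, adjusted p = 0.0013) in wild type. The copy ENSDARG00000068738 fell, with log2 fold changes of -1.11 (SE 0.25, adjusted p = 0.0043) in mutants and -0.98 (SE 0.25, adjusted p = 0.0097) in wild type.

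COX7A and COX8 are small subunits with a heart and skeletal muscle form in mammals, COX7A1 and, in many species, Cox8b. The zebrafish genes with these names, cox7a1 and cox8b, fell, while cox8a and 1 of the IDs named COX7A2 rose. COX7A2 (ENSDARG00000053217) had 31.3, 28.8, 23.96 and 26.1 CPM in injured mutants and 24.7, 10.3, 12.1 and 15.7 CPM in non-injured mutants, with the first non-injured fish inside the injured range. It had 30.7, 27.0, 29.2 and 37.2 CPM in injured wild type and 20.7, 18.9, 15.95 and 24.7 CPM in non-injured wild type, without overlap. The log2 fold change was 0.81 (SE 0.22, adjusted p = 0.014) in mutants and 0.63 (SE 0.22, adjusted p = 0.049) in wild type, while cox7a1 was at -1.24 (adjusted p = 0.00041) and -1.08 (adjusted p = 0.0014).

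For cox8a the values were 47.7, 44.3, 38.5 and 45.5 CPM in injured mutants and 28.9, 21.0, 33.8 and 23.98 CPM in non-injured mutants. They were 37.1, 29.7, 33.4 and 37.1 CPM in injured wild type and 22.7, 17.1, 21.8 and 32.2 CPM in non-injured wild type. The groups were apart in mutants, and the fourth non-injured fish reached the injured range in wild type. The log2 fold change was 0.71 (SE 0.18, adjusted p = 0.0086) in mutants and 0.55 (SE 0.18, adjusted p = 0.037) in wild type, while cox8b was at -1.19 (adjusted p = 0.0023) and -0.80 (adjusted p = 0.026). In wild type the calls of COX7A2 and cox8a were each lost under 8 alternatives, with adjusted p of up to 0.12 and 0.093. Among these, leaving out the fourth injured library put them at 0.53 (adjusted p = 0.12) and 0.50 (adjusted p = 0.078). Both calls held in mutants under every alternative. The wild type call of cox8b was lost under 6, with adjusted p of up to 0.17.

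NDUFA4 was long counted with complex I and is now known as a complex IV subunit in mammals. It fell, with log2 fold changes of -1.12 (SE 0.23, adjusted p = 0.0021) in mutants and -1.09 (SE 0.22, adjusted p = 0.0030) in wild type. Its paralog ndufa4b was scarce, with 6.63, 8.16, 3.11 and 2.46 CPM in injured mutants and 2.102, 1.66, 2.38 and 1.15 CPM in non-injured mutants. It had 11.4, 5.67, 8.08 and 14.7 CPM in injured wild type and 0.712, 3.11, 3.46 and 11.2 CPM in non-injured wild type. The mutants' groups were just apart and those of wild type overlapped. Neither log2 fold change passed the test, at 1.48 (SE 0.62, adjusted p = 0.092) in mutants and 1.09 (SE 0.58, adjusted p = 0.19) in wild type.

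COX4, the largest nuclear subunit, binds regulators of the enzyme, and its form COX4I2 is known in mammals from lung and for its response to low oxygen. COX4I1 fell in both genotypes, with log2 fold changes of -1.11 (SE 0.29, adjusted p = 0.011) in mutants and -1.11 (SE 0.29, adjusted p = 0.012) in wild type. Scaling by library size alone moved these adjusted p to 0.057 and 0.056, and fitting the wild type libraries alone gave 0.059 there. COX4I2 had 10.0, 12.9, 10.1 and 12.96 CPM in injured mutants and 8.30, 9.14, 8.45 and 9.08 CPM in non-injured mutants. In injured wild type it had 14.0, 14.3, 13.8 and 10.6 CPM and in non-injured wild type 11.3, 13.7, 10.95 and 8.17 CPM. The difference was small and not called, at 0.40 in mutants (adjusted p = 0.069) and 0.25 in wild type (adjusted p = 0.25).

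A ratio of paralogs within a library does not depend on how libraries are scaled. The pairs were chosen after their values were seen, so these ratios are a description. Counts of cox6a1 were 18.7% ± 4.20 of those of COX6A1 in injured mutants and 1.88% ± 0.353 in non-injured mutants, 9.92 times as much (SD, n = 4). They were 17.3% ± 7.97 in injured wild type and 2.04% ± 0.933 in non-injured wild type, 8.51 times as much. The lowest injured value, 8.92%, was that of the fourth wild type library and still above the highest non-injured value, 3.29%.

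For COX5B the ratio of ENSDARG00000015978 to ENSDARG00000068738 averaged 11.2% ± 2.29 in injured mutants and 1.81% ± 0.201 in non-injured mutants (SD, n = 4), and 11.7% ± 5.61 in injured wild type and 2.44% ± 0.531 in non-injured wild type. COX7A2 came to 17.3% ± 1.93 of cox7a1 in injured mutants and 4.08% ± 1.17 in non-injured mutants, and to 19.7% ± 4.03 in injured wild type and 5.76% ± 0.666 in non-injured wild type. The ratio of cox8a to cox8b was 45.9% ± 3.91 in injured mutants and 12.4% ± 3.07 in non-injured mutants, and 26.7% ± 7.40 in injured wild type and 9.83% ± 2.08 in non-injured wild type. In these pairs, and in ndufa4b over NDUFA4, every injured library was above every non-injured library of its genotype. Gene lengths were not used, so the ratios compare groups and not the levels of the paralogs.

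**Figure D3:**
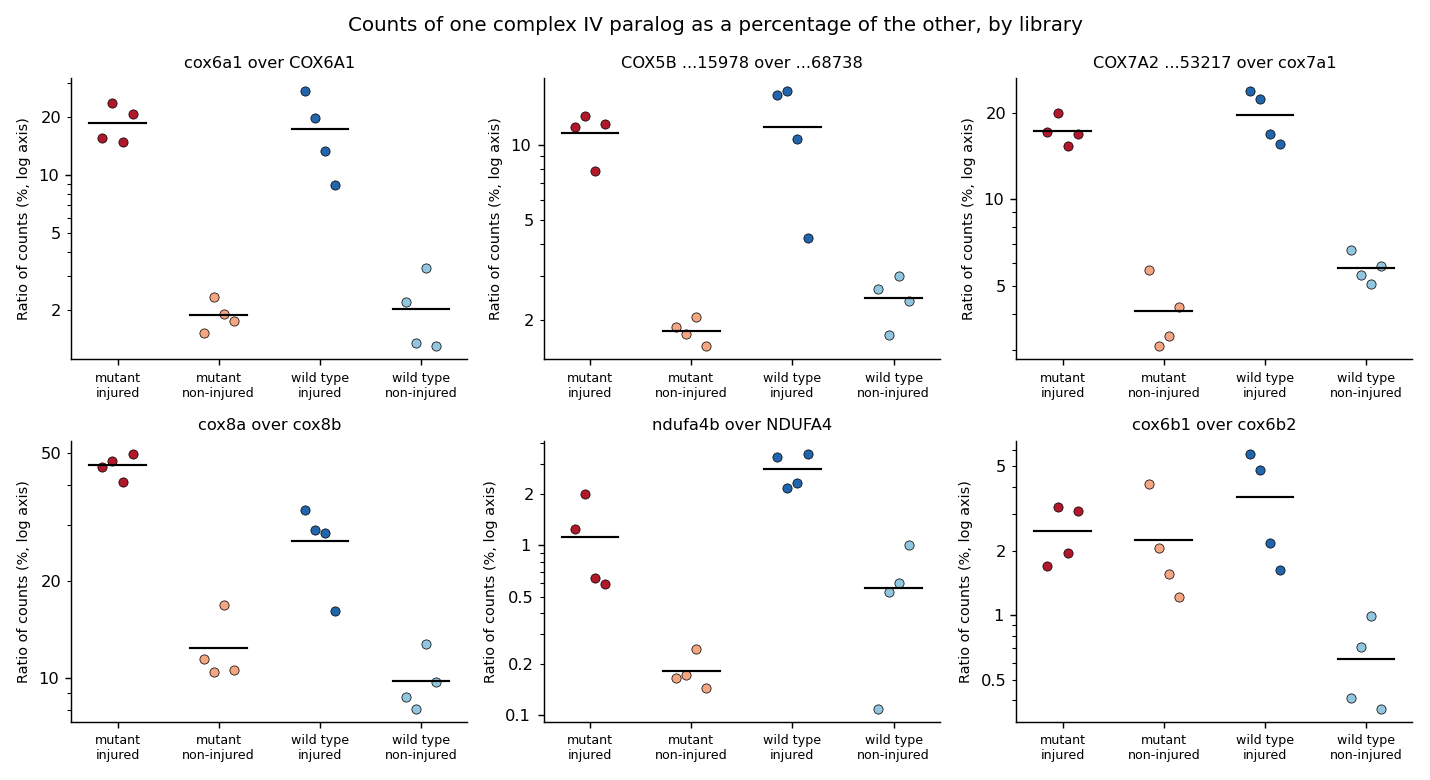
Counts of one complex IV gene as a percentage of its paralog in each library, on a log axis, for 6 pairs; each point is 1 fish and bars mark the mean of 4. The titles give the last digits of the IDs where a symbol is shared. In 5 pairs the injured fish of each genotype lie above the non-injured fish of the same genotype. The non-injured mutants lie high for cox6b1 over cox6b2. Pairs of COX4 and COX5A genes, which did not lie so in both genotypes, are not shown.

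Of the remaining forms of complex IV, cox4i1l, a gene whose symbol marks it as like COX4I1, had 12.6, 9.59, 11.4 and 11.4 CPM in injured mutants and 47.5, 51.2, 64.8 and 45.7 CPM in non-injured mutants. It had 14.6, 15.96, 23.3 and 13.7 CPM in injured wild type and 28.5, 49.1, 29.1 and 41.9 CPM in non-injured wild type. Injured fish were lower in both, by log2 fold changes of -2.22 (SE 0.21, adjusted p = 4.3e-06) in mutants and -1.14 (SE 0.20, adjusted p = 0.0012) in wild type. NDUFA4L2, whose mammalian counterpart is induced by low oxygen, fell in mutants by 1.83 on the log2 scale (SE 0.48, adjusted p = 0.011) but spread from 1.83 to 12.04 CPM in non-injured mutants, against 1.48 to 2.66 CPM in injured ones. In wild type it was at -0.40 (adjusted p = 0.57). With limma-voom the mutants' call was lost (adjusted p = 0.061).

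Between genotypes few members passed the test. Without injury 1 of 105 tested members was higher in mutants and 1 lower, shares no larger than the 1.38% higher and 1.45% lower among all genes. The members' median was 0.12, with 73 of 105 above 0. That of all genes was -0.01, with 51.3% of them below 0. For 3 members all 4 mutants lay above all 4 wild type fish and for 1 below, against 4.83% and 4.21% of all genes. After injury 0 members were called in either direction, beside 0.83% higher and 0.648% lower of all genes. At an unadjusted edgeR p below 0.05 there were 7 of 105 members, beside 2474 of the 16514 genes tested. DESeq2 called 2 members higher, and limma-voom called 0. Injured mutants lay above injured wild type without overlap for 2 members and below for 1, against 5.92% and 5.86% of all genes. The members' median was 0.16, with 81 of 105 above 0. That of all genes was -0.001, with 50.1% of them below 0.

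The member higher in non-injured mutants was cox6b1, which encodes a subunit on the intermembrane side that helps join the enzyme's monomers. It had 28.9, 12.2, 10.0 and 6.91 CPM in non-injured mutants and 2.20, 3.17, 3.87 and 2.13 CPM in non-injured wild type. All mutants were higher, and the first mutant was well above the other 3. The log2 fold change was 2.35 (SE 0.40, adjusted p = 0.0081), and 1.78 without the first mutant (adjusted p = 0.01). Fitting the 8 non-injured libraries alone moved the adjusted p to 0.056. After injury the gene had 6.40, 9.40, 6.77 and 9.44 CPM in mutants and 13.8, 9.18, 6.48 and 6.22 CPM in wild type, with overlapping groups and a log2 fold change of -0.16 (adjusted p = 0.89).

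Seen by injury, cox6b1 rose in wild type by 1.65 on the log2 scale (SE 0.40, adjusted p = 0.0080). In mutants the value was -0.86 (SE 0.38, adjusted p = 0.10). The difference between these responses was -2.51 (SE 0.55), which did not pass the test in edgeR (adjusted p = 0.19) and did in DESeq2 (adjusted p = 0.0049). Its paralog cox6b2 fell in both genotypes, by -0.93 in mutants (adjusted p = 0.0030) and -0.82 in wild type (adjusted p = 0.0075, and 0.085 at most under the alternatives).

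The member lower in non-injured mutants was atp5if1a, one of the paralogs for the inhibitor that stops ATP synthase from running backwards. It had 78.4, 42.8, 49.7 and 49.8 CPM in non-injured mutants and 101.3, 130.4, 104.4 and 107.5 CPM in non-injured wild type, without overlap. The log2 fold change was -1.01 (SE 0.24, adjusted p = 0.037), a call lost under 8 alternatives, with adjusted p of up to 0.11. After injury it had 56.6, 28.2, 46.6 and 61.2 CPM in mutants and 50.95, 49.4, 70.7 and 79.5 CPM in wild type, and the groups overlapped. It fell after injury in wild type (-0.82, SE 0.24, adjusted p = 0.022, lost under 4 alternatives with values of up to 0.11), while in mutants it was at -0.20 (adjusted p = 0.58). The other paralog, atp5if1b, fell in both, by -1.16 in mutants (adjusted p = 0.00082) and -0.95 in wild type (adjusted p = 0.0038).

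**Figure D4:**
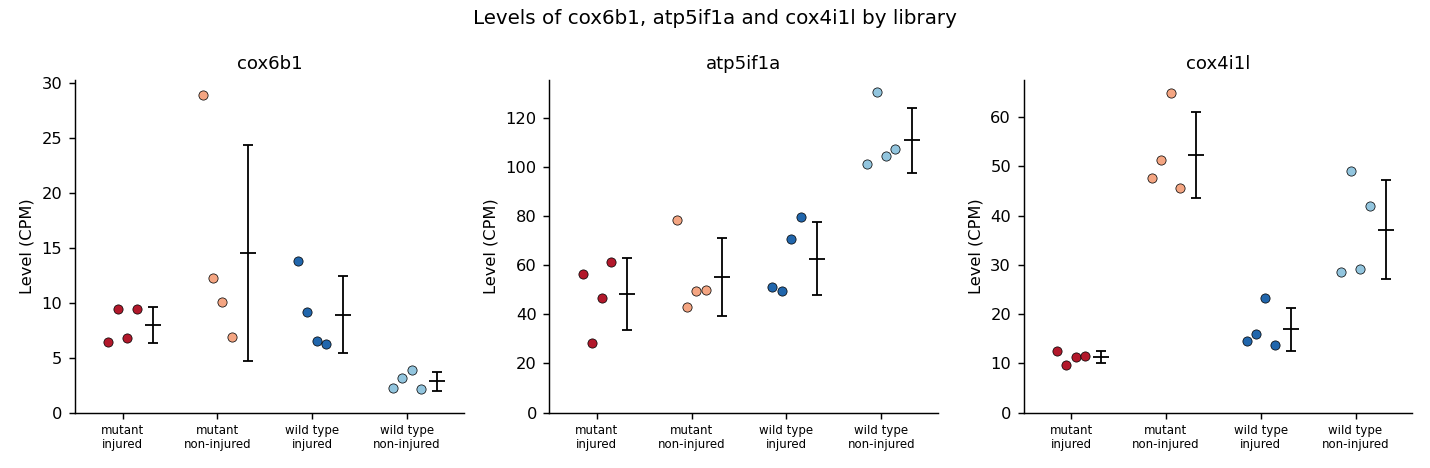
Level in CPM of cox6b1, atp5if1a and cox4i1l; each point is 1 fish, with the mean and SD of 4. Non-injured wild type is the lowest group for cox6b1 and the highest for atp5if1a, and both injured groups are lowest for cox4i1l.

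SDHB came closest to a call after injury. It had 200.8, 148.5, 169.2 and 156.1 CPM in injured mutants and 74.0, 65.0, 103.5 and 130.6 CPM in injured wild type, without overlap. The difference was 0.85 on the log2 scale (SE 0.23, adjusted p = 0.075). DESeq2 called it (adjusted p = 0.0091). Leaving out the fourth injured wild type library called SDHB, UQCRC2, UQCRFS1 and NDUFB10 higher in injured mutants, 4 members in all. In non-injured fish SDHB was at 0.59 (adjusted p = 0.16), with 382.0, 239.5, 364.0 and 314.0 CPM in mutants and 171.0, 216.3, 189.4 and 286.0 CPM in wild type.

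A direct test of whether injury acted differently in mutants and wild type called 0 of 105 members, and over all genes 0.0182% were called higher and 0.0424% lower. At an unadjusted edgeR p below 0.05 there were 3 of 105 members, beside 1207 of the 16514 genes tested. The 3 were cox6b1, cox4i1l (-1.08, SE 0.28, adjusted p = 0.35) and NDUFA4L2 (-1.43, SE 0.66, adjusted p = 0.68), all of complex IV. DESeq2 called cox6b1 alone and limma-voom called 0. The members' median difference was 0.06.

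Other genes of the pathway and of the mitochondrion were followed as lists. Beside them, 13.3% of all genes tested fell and 14% rose in mutants, with a median of -0.02. In wild type 11.9% fell and 11.8% rose, with a median of -0.03. Of 51 assembly factors, which build the complexes, 30 fell in mutants and 22 in wild type and none rose, with medians of -0.67 and -0.60. SURF1, needed to assemble complex IV, was at -0.73 in mutants (adjusted p = 0.0076) and -0.71 in wild type (adjusted p = 0.01). Of 17 genes for cytochrome c and ubiquinone synthesis, 10 fell in mutants and 9 in wild type, with medians of -0.74 and -0.62, and cycsa (ENSDARG00000095636) had 0 counts in every library. COQ9, needed for ubiquinone synthesis, was at -1.34 (adjusted p = 0.00017) and -1.22 (adjusted p = 0.00045). Of 20 mitochondrial genes outside the chain, 8 fell in mutants and 9 in wild type, with medians of -0.46 and -0.56. They included citrate synthase, CS, at -0.82 in mutants (adjusted p = 0.0081) and -0.93 in wild type (adjusted p = 0.0044), while the chaperone HSPD1 was at 0.21 and 0.33 without a call. Of 18 genes for cristae and membrane organisation 8 fell in each genotype.

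Regulators of mitochondrial biogenesis were called in both directions, beside 14% of all genes higher and 13.3% lower in mutants. The shares over all genes in wild type were 11.8% and 11.9%. Of 27 tested, 2 rose and 7 fell in mutants, and 1 rose and 6 fell in wild type, with medians of -0.41 and -0.36. TFAM, which packs and transcribes mitochondrial DNA, was at -0.34 in mutants (adjusted p = 0.023) and -0.35 in wild type (adjusted p = 0.02). PPARGC1A, the coactivator that drives biogenesis in muscle, was at -1.08 (adjusted p = 0.11) and -0.98 (adjusted p = 0.16). The related coactivator gene pprc1 rose, by 1.297 in mutants (adjusted p = 0.0016) and 1.77 in wild type (adjusted p = 0.00026). The muscle regulator perm1a fell, at -0.87 (adjusted p = 0.046) and -1.55 (adjusted p = 0.0027).

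Markers of other cells moved with the injury. Of 12 fibroblast genes tested 11 rose in each genotype, beside 14% of all genes in mutants and 11.8% in wild type. The fibroblast list summed to 9960 to 12400 CPM in injured mutants and 13000 to 17000 CPM in injured wild type. Without injury it summed to 3500 to 4250 CPM in mutants and 3630 to 5810 CPM in wild type. Of 16 macrophage genes 14 rose in mutants and 7 in wild type, with sums of 328 to 453, 255 to 448, 126 to 175 and 133 to 264 CPM in the same order of groups. Of 4 neutrophil genes 3 rose in each genotype, with sums of 17.9 to 25.3, 11.2 to 88.1, 2.88 to 6.09 and 4.81 to 12.3 CPM. Satellite cell and myoblast genes rose for 5 of 7 in each genotype, with sums of 81.6 to 110, 65.7 to 87.1, 40.2 to 54.3 and 44.8 to 64.8 CPM. Among the cell type lists 1 macrophage ID, MFAP4 (ENSDARG00000111491), had 0 counts in every library. All sums of cell type lists take in every matched ID, tested or not: 13 for fibroblasts, 22 for macrophages and 7 for neutrophils. No ID matched the neutrophil markers mpx and cxcr2, the fast fibre markers mylpfa and mylpfb or the erythrocyte markers hbba1 and hbba2.

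For the lists that follow, the shares over all genes were 13.3% lower and 14% higher in mutants. In wild type they were 11.9% lower and 11.8% higher. Slow fibre genes, the markers of the more oxidative muscle, fell for 8 of 14 in mutants and 6 of 14 in wild type, where 1 rose. Their sums were 2430 to 3020 CPM in injured mutants, 2360 to 3180 in injured wild type, 5090 to 6990 in non-injured mutants and 3070 to 6200 in non-injured wild type. Of 23 fast fibre genes 5 rose and 3 fell in mutants and 3 rose and 2 fell in wild type, with sums of 111000 to 126000, 113000 to 178000, 113000 to 178000 and 123000 to 239000 CPM in that order, so that muscle markers were abundant throughout. Both RYR1 IDs are in the slow and the fast list, and RYR1 (ENSDARG00000011422) is counted among the falls of each, at -1.38 in mutants and -0.76 in wild type. Endothelial genes fell for 8 of 12 in mutants and 7 of 12 in wild type, with sums of 205 to 270, 207 to 281, 336 to 386 and 312 to 373 CPM. Erythrocyte genes fell for 1 of 5 in mutants and for 0 in wild type, with sums of 98.5 to 206, 327 to 863, 64.1 to 350 and 130 to 394 CPM. No epidermis gene of 10 was called, and the sums were 297 to 888, 180 to 1310, 126 to 754 and 296 to 1990 CPM. The fourth injured wild type library had the lowest fibroblast, macrophage and neutrophil sums of its group, at 12980, 254.7 and 11.25 CPM, and the highest slow fibre sum, at 3177 CPM. It also had the highest erythrocyte sum, at 863.4 CPM with 326.7 to 428.1 in the other 3, and the highest endothelial sum, at 280.9 CPM with 207.0 to 223.3. The part of these cell types in the fall of the subunit genes was not tested.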

How the data were processed

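The authors deposited a table of expected (estimated) counts by gene, of which 94.29% are whole numbers. The submitters' processing notes name RSEM 1.3.3, fastp 0.23.4 and STAR in versions 2.7.0 and 2.7.10 without their roles. Genome build, annotation and strandedness of counting: not given in the sources used here. Reads that match several genes are divided between them by RSEM, so counts of near-identical paralogs are uncertain one by one. The authors' expected counts were rounded to whole numbers. Each of the 16 columns carries the number in a sample's description and was assigned by it.

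Symbols came from a table naming 29201 of 32520 IDs; 9 members share 4 symbols and carry their ID where named. Genes were kept by filterByExpr (minimum count 10, minimum total 15), which left 16514 genes and 105 of 108 members. COX5B (ENSDARG00000113254), SDHD (ENSDARG00000055712) and ndufa4l2b were not tested, and ndufa4l2b had 0 counts in every library. edgeR 4.0.16 (R 4.3.3) was run with TMM scaling, 1 mean per group, all 16 libraries and robust quasi-likelihood fits; log2 fold changes are injured over non-injured or mutant over wild type. The biological coefficient of variation was 31.3%. The injury test in wild type was run on simulated counts with known changes. Alternatives used limma 3.58.1 and DESeq2 1.42.0, other scalings and filters, and fits without each library.

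Fish are the replicates, so p-values measure the spread between fish; no batch is named in the labels. The members and the lists were chosen with earlier results of these data known. Named genes were taken from a rule, and some genes under it have no values printed, among them MT-CO2, MT-CO3, UQCRQ and atp5f1e. The rule covers the mitochondrial genome members, families with tissue or oxygen isoforms, members called against the majority and those called between genotypes. Per complex it adds the 3 called members with the smallest p and the most highly expressed one. The rule's list of isoform genes did not name ndufa4b, which was added with the NDUFA4 family. Outside the rule, NDUFS3, ATP5F1B, COX5B (ENSDARG00000068738), NDUFB10, UQCRH, UQCR10, SDHD, ATP5PD, ndufv3, ndufa9b and the genes named from the other lists were chosen after their values were seen.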

Additional observations from a re-analysis of the deposited data

Results flagged for a closer look

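Of 208 sets of 4 libraries examined for 1 library far from the other 3, 20 were picked out, and chance gives about 1 in 20. In injured wild type the fourth library was the distant one for MT-CO1 (35950 CPM, the others 19460 to 19950), MT-ND3 (987.7 CPM, 446.1 to 518.2), MT-CYB (11400 CPM, 5904 to 6099) and MT-ATP6 (8796 CPM, 4496 to 4672). It was also distant for COX4I1 (641.1 CPM, 237.9 to 303.0), cox8b (229.1 CPM, 102.6 to 117.8), UQCRC2 (225.9 CPM, 124.4 to 140.2) and, on the low side, COX4I2 (10.57 CPM, 13.75 to 14.28). The same library stood out in the summed level of the mitochondrial genome members (102000 CPM, 54970 to 55690) and in the nuclear members' share of all counts (2.115%, 1.258% to 1.351%).

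In the third library of injured wild type, ATP5MC3 came to 17.72% of atp5mc3b and atp5mea to 14.13% of atp5meb, both below the other 3 (23.63% to 24.18% and 16.25% to 16.43%). In non-injured wild type NDUFA4 was highest in the fourth library (1107 CPM, 576.1 to 655.1).

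Among injured mutants the first library stood out for COX6A1 (ENSDARG00000054588; 374.0 CPM, 284.4 to 296.4) and for the mitochondrial genome members' share of counts (10.64%, 7.554% to 7.888%), and the third for COX5B (ENSDARG00000015978; 24.5 CPM, 31.09 to 32.19). Among non-injured mutants MT-CO1 was highest in the first library (56890 CPM, 44560 to 45570), where atp5if1a came to 36.17% of atp5if1b (21.54% to 23.87%). NDUFB4 was highest in the fourth (205.4 CPM, 180.7 to 181.2), and cox8a came to 16.95% of cox8b in the third (10.49% to 11.47%).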

How the results depend on the processing

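Of 23 alternatives tried, 16 left out 1 library, and 15 bear on each injury comparison. All 88 falls in mutants and 90 in wild type kept their direction under each of those 15, and 59 and 58 stayed called under all 15. Among the 15, a library size without the mitochondrial genome members was followed by TMM scaling again. It gave the same counts and medians as the main fit, so it adds no check. When 1 library was left out, 81 to 89 members were lower in mutants and 72 to 95 in wild type. With only the groups compared, 94 were lower in mutants and 67 in wild type, whereas the main fit shares 1 estimate of the spread over all 16 libraries. Scaled by library size alone, 60 members were lower in mutants and 58 in wild type; that scaling put the median of all genes at 0.26 in mutants and 0.34 in wild type, and relative to it the members' medians were -0.94 and -1.01. In wild type, members higher were 3 with no filter on low counts and 3 to 6 without 1 library: cox6a1, COX5B (ENSDARG00000015978) and cox6b1 were called each time. Between non-injured genotypes, members higher numbered 0 with only the groups compared and 1 to 2 without 1 library, and members lower numbered 0 with library size only (1 higher), 0 with only the groups compared and 0 to 1 without 1 library. Between injured genotypes, members higher numbered 1 with library size only, 2 with DESeq2 and 0 to 4 without 1 library. For the difference between injury responses DESeq2 called 1 lower. Signs turned only for values that were not called. COX7A2 (ENSDARG00000110700) was at 0.163 in wild type with library size only, and in mutants at -0.063 with limma-voom, -0.015 with the replicate block and -0.222 to 0.211 without 1 library. In mutants atp5if1a was at 0.079 with library size only and at -0.332 to 0.021 without 1 library. Between injured genotypes cox6b1 was at -0.293 to 0.132 without 1 library. Causes were not tested.

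No label says that replicate numbers pair fish. Same-numbered fish correlated at -0.19 to 0.34, and 6 of 16 libraries correlated best with their own number. The replicate block gave 90 lower and 4 higher in mutants, and 91 lower and 5 higher in wild type. The scarce members ndufa4b and NDUFA4L2 had wide errors and spread widely between fish of a group. The range was 0.712 to 11.2 CPM for ndufa4b in non-injured wild type. For NDUFA4L2 it was 1.83 to 12.04 CPM in non-injured mutants. A part of depth in these errors was not tested.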

Other observations

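Paralog pairs outside complex IV showed no such shift in both genotypes. Counts of uqcrc2a were 54.3% to 82.7% of those of UQCRC2 in injured mutants and 57.6% to 70.4% in non-injured mutants, and 85.2% to 116% in injured wild type and 59.9% to 77.9% in non-injured wild type, so that the groups were apart in wild type alone. The ratio of ATP5MC3 to atp5mc3b, genes for the ring of complex V, overlapped between injured and non-injured fish in both genotypes, as did atp5mea over atp5meb and the complex IV pair COX5A over cox5aa. For the inhibitor pair, atp5if1a came to 31.5% to 71.9% of atp5if1b in injured mutants, 55.8% to 78.0% in injured wild type, 21.5% to 36.2% in non-injured mutants and 43.5% to 71.6% in non-injured wild type. The pairs were chosen after their values were seen, and these differences were not tested.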
